A study of Mus musculus with 2 samples.

Results

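The genes of the platelet-derived growth factor (PDGF) family described here are the kinase receptors Pdgfra and Pdgfrb, the receptor-like gene Pdgfrl and the ligands Pdgfa, Pdgfb and Pdgfc. They were taken by symbol, 6 of 27998 genes counted, and followed through 5 classes of tendon cells. The data are single-cell RNA counts from limb tendons of mice at postnatal day 7, with 1 library from wild-type and 1 from mutant pups, in each of which tendons of the fore- and hindlimbs of 2 pups were pooled. Mutant pups lacked the type II TGFβ receptor gene Tgfbr2 where Scleraxis-Cre (ScxCre), a tendon deletor, had acted on a floxed allele (Tgfbr2;ScxCre). The paper gives their genotype as Tgfbr2 f/-, so the other allele was null in all cells. Pups of both groups carried the tendon reporter ScxGFP and the Cre reporter Ai14 Rosa26-tdTomato (RosaT). The control was titled wild-type, although its description read Het, and it is called wild-type below. Tendon surfaces were not scraped, so cells of the sheaths around the tendon stayed in.

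PDGFs are secreted dimers that bind receptor tyrosine kinases on mesenchymal cells and drive their division, migration and survival. PDGF-A and PDGF-C act mainly through PDGFRα, which marks fibroblasts in many tissues, and PDGF-B acts through both receptors and, released by endothelium, recruits PDGFRβ-bearing mural cells (pericytes and smooth muscle cells) to vessels. PDGF-C is secreted in a latent form that tissue plasminogen activator, the product of Plat, can cleave, and Pdgfrl encodes a protein that resembles the outer part of a PDGF receptor and lacks a kinase domain.

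The wild-type library held 2364 cells and 9451606 unique molecular identifiers (UMIs, tags that count each captured mRNA once), with a median of 3866.5 UMIs per cell. The mutant library held 2592 cells and 8250248 UMIs, with a median of 2828. Only 2 cell barcodes occurred in both. Cells with at least 30 Scx UMIs per 10000 UMIs were called Scx-high and numbered 1156 among wild-type and 226 among mutant cells. Of the rest, cells with at least 5 UMIs over Ly6a, Cd34, Dpt, Lum and Col3a1 were called Scx-low fibroblasts and numbered 713 and 1824. Mural cells (153 and 87), endothelial cells (22 and 28) and immune cells (190 and 193) were set apart first, by at least 3 UMIs over at least 3 different markers of the type. Since these markers defined the classes, their presence there is no check of the names. Scx counts included the ScxGFP transgene. The paper proposes that cells with ScxGFP in mutant tendons at this age were newly recruited, since some had weak or no RosaT. Whether the Scx-high classes of the libraries held the same kind of cell was not tested. Tgfbr2 itself stood at 30.4 UMIs per 1000000 (CPM) in wild-type and 47.6 CPM in mutant Scx-high cells, but counts from the 3′ end do not report a deletion further upstream, so this did not check the genotype.

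With 1 library per condition there was no spread between replicates and no test. Levels are UMIs summed over the cells of a class and divided by the class total. Their intervals, given in parentheses, are exact 95% Poisson intervals, or exact conditional intervals for ratios, and cover counting error only. Batch and condition cannot be told apart. The 3′ counts do not grow with transcript length but differ between genes in capture, so each gene is compared with itself.

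Among the 5 classes, Pdgfra was highest in Scx-low fibroblasts, Pdgfrb and Pdgfa in mural cells, Pdgfrl in Scx-high cells and Pdgfb in endothelial cells, in both libraries. Pdgfc had its highest level in Scx-low fibroblasts of the wild-type and in Scx-high cells of the mutant library, so the class with the highest level was shared for 5 of the 6 genes.

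**Figure D1:**
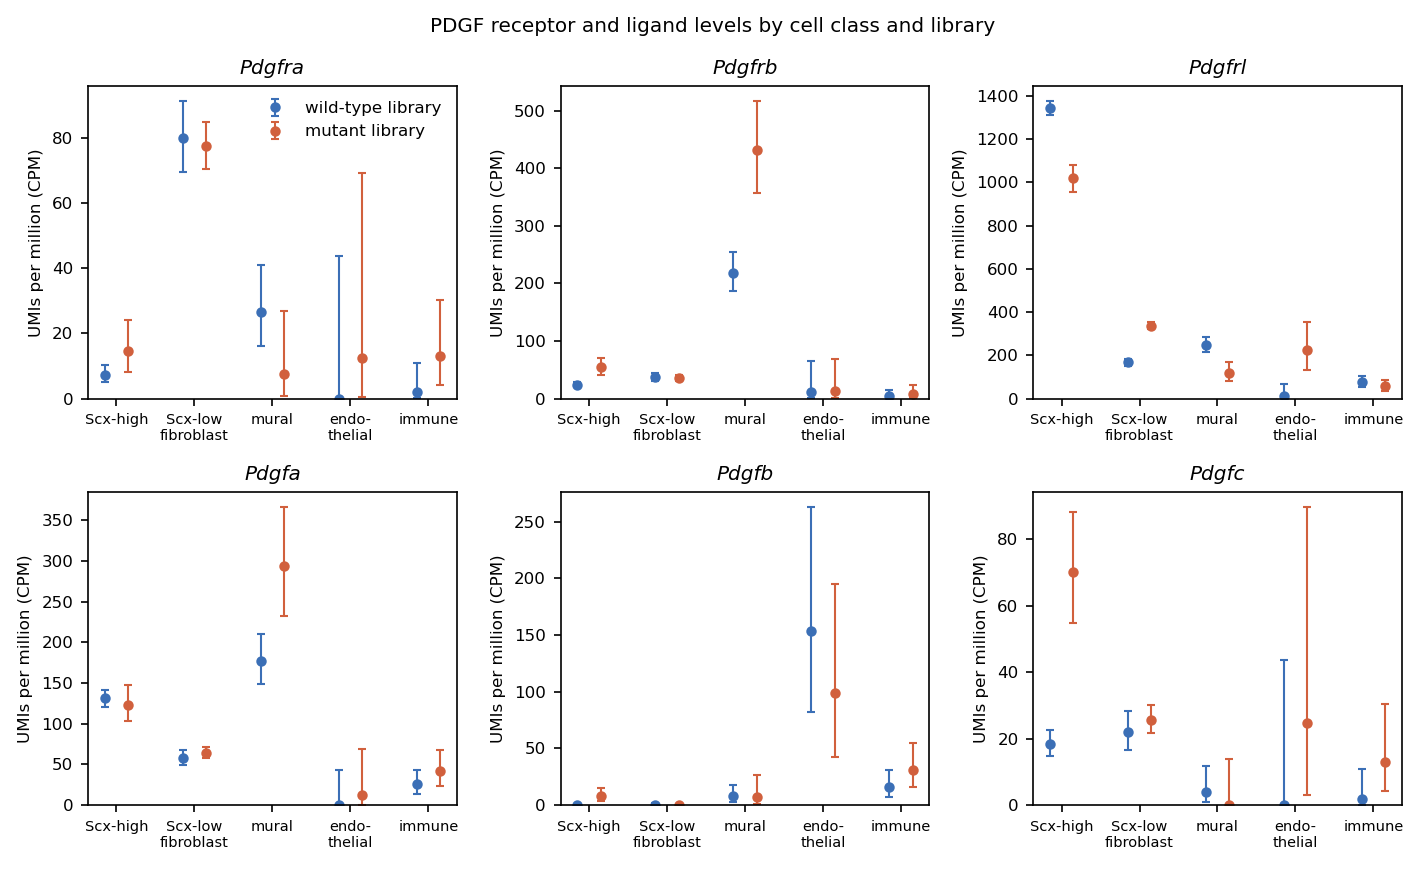
Level of each PDGF gene in UMIs per 1000000 (CPM, linear axes from 0) in 5 cell classes of the wild-type (blue) and mutant (orange) library; points are class sums and bars are exact 95% Poisson intervals. Pdgfra stood at 79.8 and 77.3 CPM in Scx-low fibroblasts, Pdgfrb peaked in mural cells and Pdgfrl in Scx-high cells, and Pdgfc differed most between libraries in Scx-high cells.

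Pdgfra (chr5:75152292-75198215, plus strand, GRCm38) encodes PDGFRα. Its level in Scx-high cells was 7.28 CPM (5.07 to 10.1, 35 UMIs) among wild-type cells and 14.6 CPM (8.16 to 24.0, 15 UMIs) in the mutant library. In Scx-low fibroblasts it was 79.8 CPM (69.6 to 91.2) and 77.3 CPM (70.3 to 84.9), a mutant over wild-type ratio of 0.968 (0.821 to 1.14). The intervals of the libraries overlapped, and the level of these fibroblasts was above that of every other class. They stood 10.97-fold (7.65 to 16.2) above Scx-high cells of the wild-type and 5.30-fold (3.18 to 9.56) above those of the mutant library, where the ratio moved to 39.7 with the immune level subtracted. A Pdgfra UMI was found in 23.6% (20.5 to 26.9) of wild-type and 19.9% (18.1 to 21.8) of mutant Scx-low fibroblasts. After thinning to 1500 UMIs per cell the shares were 9.82% and 11.1%, with 41 and 165 cells below that depth left out. Immune cells, which should lack the gene and show the free RNA of each suspension, had a UMI in 0.526% and 2.59% of cells, at median depths of 2447 and 1704 UMIs. Their level in the mutant library, 13.0 CPM from 5 UMIs, lay within the counting error of the mutant Scx-high level (ratio 1.13, 0.389 to 3.96). On the CPM scale, then, Pdgfra in mutant Scx-high cells was not detectably above the immune level. Mutant Scx-high cells had a higher median depth, 4166 UMIs. Equal free RNA per cell would thus weigh more in the immune CPM, also where it was subtracted.

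Scx is a bHLH protein, a class of factors that bind the E-box CANNTG, and the letters just upstream of the genes are shown for Pdgfra, which was lower where Scx was higher, and Pdgfc, which differed between libraries at like Scx levels. Each run is the 250 bases before the RefSeq start (GRCm38.p6, plus strand, chr5:75152001-75152250 and chr3:81036166-81036415), and capitals mark every CANNTG, a motif that reads the same class of letters on both strands.
Pdgfra: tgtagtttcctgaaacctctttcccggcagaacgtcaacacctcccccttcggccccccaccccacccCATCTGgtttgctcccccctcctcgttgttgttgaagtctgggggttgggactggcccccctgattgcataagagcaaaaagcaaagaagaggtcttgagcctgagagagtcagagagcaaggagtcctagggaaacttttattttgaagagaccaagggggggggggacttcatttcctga
Pdgfc: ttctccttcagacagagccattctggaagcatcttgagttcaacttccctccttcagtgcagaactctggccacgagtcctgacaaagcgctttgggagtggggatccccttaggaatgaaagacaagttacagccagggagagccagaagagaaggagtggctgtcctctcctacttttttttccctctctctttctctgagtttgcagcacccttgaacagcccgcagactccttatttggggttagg
The Pdgfra window held 1 E-box, CATCTG, and the Pdgfc window held 0, as did the windows of both listed Pdgfa starts. Of 32851 mouse promoter windows of the same length, 66.2% held at least 1, so having 1 does not set Pdgfra apart. Entries were found for 3 of the 6 genes.

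Pdgfrb encodes PDGFRβ. In mural cells it stood at 218 CPM (186 to 254, 165 UMIs) in the wild-type and 431 CPM (356 to 517, 116 UMIs) in the mutant library, a ratio of 1.97 (1.54 to 2.52). Scx-high cells held 23.7 CPM (19.6 to 28.5) and 54.4 CPM (41.1 to 70.7), and Scx-low fibroblasts 37.0 CPM (30.1 to 45.0) and 34.8 CPM (30.1 to 40.0). Immune cells had 3.88 and 7.78 CPM and endothelial cells 1 UMI in each library. Next to mural cells, then, the order of the remaining mesenchymal classes was opposite in the libraries. Scx-low fibroblasts stood above Scx-high cells in the wild-type (1.56, 1.18 to 2.06) and below them in the mutant library (0.640, 0.473 to 0.876). Relative to the median gene the wild-type ratio was 1.15. Of the wild-type library's 385 Pdgfrb UMIs, 42.9% lay in mural cells, 6.47% of its cells. Of the 390 in the mutant library 29.7% lay in mural cells, 3.36% of its cells, and 51.0% in Scx-low fibroblasts.

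The mural class was not uniform. Split after its values had been seen by the smooth muscle genes Cnn1 and Myh11, cells with at least 3 UMIs of these had 138 CPM of Pdgfrb in the wild-type and 153 CPM in the mutant library, and the rest 377 and 627 CPM. The rest, 60 wild-type and 56 mutant cells, also carried more of the pericyte genes Kcnj8 (636 against 47.9 CPM, wild-type) and Abcc9 (181 against 24.0 CPM). All 20 mural Pdgfra UMIs of the wild-type library lay in these 60 cells, in 11 cells, and so did 155 of the 187 Pdgfrl UMIs. The same 60 cells held 1118 CPM of the fibroblast gene Lum against 55.9 CPM in the other wild-type mural cells, and 3434 CPM of Scx against 926 CPM, with a Scx UMI in 63.3% against 68.8% of cells. Fewer of the mutant than of the wild-type mural cells passed the Cnn1 and Myh11 split, 31 of 87 against 93 of 153. The split is a fixed UMI count, and mutant mural cells were shallower, with a median of 3009 against 4704 UMIs. The part of depth in these shares was not tested, nor was that of the mix in the class ratios.

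Few cells had UMIs of both receptors. Among wild-type Scx-low fibroblasts 143 had only Pdgfra, 63 only Pdgfrb and 25 both, and among mutant ones 340, 151 and 23. At the thinned depth both were found in 0.595% and 0.181%. Most fibroblasts, 67.6% and 71.8%, had a UMI of neither, which at these depths does not show that they lacked the receptors. Pdgfra was found in 23.6% and 19.9% of these fibroblasts and Pdgfrb in 12.3% and 9.54%. At such shares few cells would have both even with independent detection. Both were found in 3.51% of wild-type and 1.26% of mutant Scx-low fibroblasts. The share expected with independent detection was not set against these values, so whether the receptors lay in separate cells was not tested.

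Pdgfrl (chr8:40926212-40990785, plus strand) had the most UMIs of the 6 genes in both libraries, 7190 and 3085. Scx-high cells held 1344 CPM (1312 to 1377) in the wild-type and 1019 CPM (958 to 1082) in the mutant library, with a UMI in 92.6% and 84.1% of cells. In Scx-low fibroblasts the level was 167 CPM (152 to 183) in the wild-type and 338 CPM (323 to 353) in the mutant library. The intervals of the libraries did not overlap in either class, and the direction was opposite: the mutant over wild-type ratio was 0.758 (0.709 to 0.809) in Scx-high cells and 2.03 (1.83 to 2.25) in Scx-low fibroblasts. The latter was 1.62 when every cell was given equal weight. Scx-high cells were also split, after values had been seen, by at least 3 UMIs of the type II collagen gene Col2a1. With these Pdgfrl stood at 1446 CPM (1405 to 1488) in 705 wild-type and 2148 CPM (1779 to 2570) in 13 mutant cells. The other 451 and 213 cells held 1126 CPM (1074 to 1181) and 954 CPM (894 to 1018). The part of this mix in the Scx-high ratio was not tested. In mural cells the mutant over wild-type ratio was 0.480 (0.319 to 0.702), from 247 CPM to 119 CPM, and 0.933 with a looser minimum for the class. Tenocyte markers were also lower in mutant mural cells, at 3517 CPM summed over 7 genes against 11719 CPM, with Fmod at 119 against 384 CPM, and haemoglobin genes stood at 286 against 7246 CPM. Their part in the mural ratio was not tested. The gene was singled out from these same libraries by the study, so its lower level in mutant Scx-low fibroblasts than in wild-type Scx-high cells, by 3.98-fold (3.78 to 4.19), is a description and not independent evidence.

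Immune cells held UMIs of this gene too, with 75.7 CPM of Pdgfrl in the wild-type and 57.0 CPM in the mutant library. These were 39 UMIs in 22 wild-type cells, at most 6 in 1 cell, and 22 in 11 mutant cells, at most 5. Whether they came from free RNA or from cells captured together was not tested. For every 100 UMIs of fibromodulin (Fmod), a tendon proteoglycan gene, wild-type Scx-high cells held 25.1 UMIs of Pdgfrl and wild-type immune cells 23.2, close to 1 ratio. Wild-type Scx-low fibroblasts held 53.8. In the mutant library the values were 39.9 in Scx-high cells, 62.9 in immune cells and 95.7 in Scx-low fibroblasts. The part of free RNA in the Scx-low levels was not tested. A UMI was present in 28.8% and 37.6% of Scx-low fibroblasts against 11.6% and 5.70% of immune cells, and after thinning in 17.1% and 27.6% against 5.26% and 4.39%. In endothelial cells of the mutant library 18 UMIs came from 2 cells, 15 of them from 1 cell, and the 1 UMI of the wild-type class allows no comparison.

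Scx-low fibroblasts were split by tenomodulin (Tnmd), a tendon membrane protein gene, and by Pi16, a gene of adventitial fibroblasts, after values had been seen. Those with at least 10 Tnmd UMIs per 10000 held 335 CPM of Pdgfrl against 136 CPM in the others of the wild-type library, and 592 against 260 CPM in the mutant library. Pdgfa was also higher with Tnmd, at 107 against 48.6 CPM and 96.0 against 54.0 CPM. With a Pi16 UMI Pdgfa was lower, at 28.9 against 80.9 CPM in the wild-type library and 40.4 against 70.3 CPM in the mutant library. Tnmd-bearing cells made up 410 of 1824 mutant and 130 of 713 wild-type Scx-low fibroblasts, and Pdgfrl differed between the libraries on both sides of the split.

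**Figure D2:**
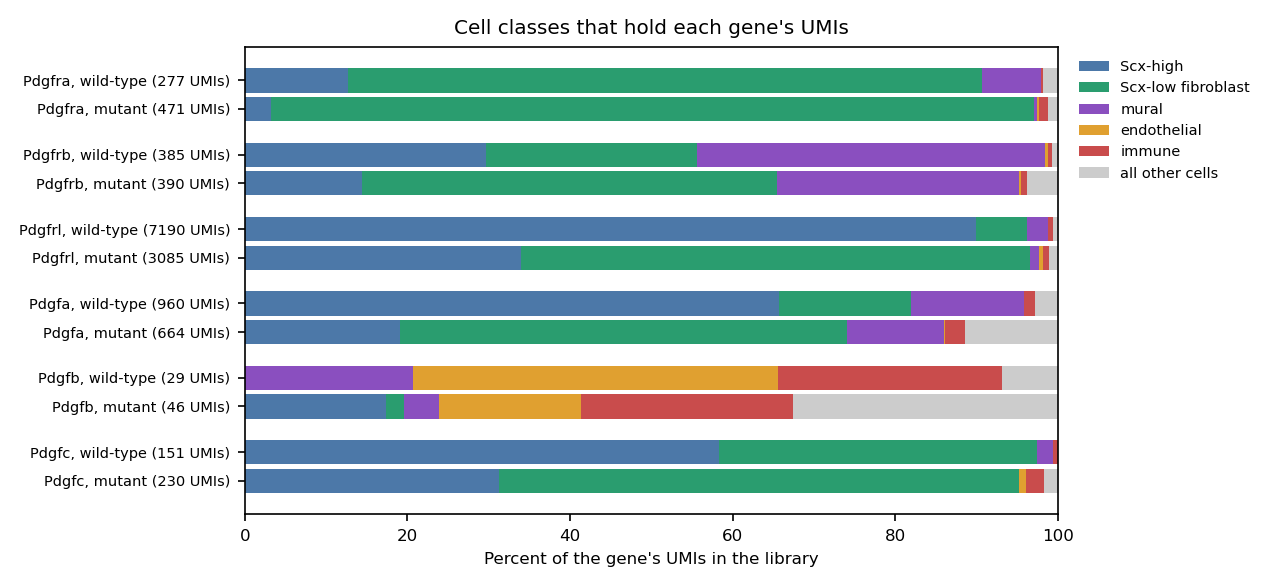
Share of each gene's UMIs, in percent of its total in the library (total in brackets), that lay in each cell class. Most Pdgfrl UMIs lay in Scx-high cells in the wild-type (89.9%) and in Scx-low fibroblasts in the mutant library (62.6%), which made up 70.4% of mutant cells.

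Pdgfa (chr5:138976014-138997370, minus strand) encodes the PDGF-A chain, the main ligand of PDGFRα. In mural cells it stood at 177 CPM (149 to 210) in the wild-type and 293 CPM (232 to 366) in the mutant library, a ratio of 1.65 (1.24 to 2.20). Scx-high cells held 131 CPM (121 to 142) and 123 CPM (103 to 147), and Scx-low fibroblasts 57.7 CPM (49.0 to 67.5) and 63.9 CPM (57.5 to 70.8). Between libraries the intervals of both mesenchymal classes overlapped, with ratios of 0.942 (0.772 to 1.14) and 1.11 (0.916 to 1.34). Within each library Scx-low fibroblasts were lower than Scx-high cells, 2.27-fold (1.90 to 2.73) in the wild-type and 1.93-fold (1.57 to 2.37) in the mutant, which is opposite to the order of its receptor gene Pdgfra. Immune cells held 25.2 and 41.5 CPM, and the mutant Scx-low level did not exceed that of mutant immune cells beyond counting error (1.54, 0.935 to 2.72). In total 65.6% of the wild-type Pdgfa UMIs lay in Scx-high cells and 55.0% of the mutant ones in Scx-low fibroblasts.

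Pdgfb (chr15:79995874-80014977, minus strand), the vascular ligand, was rare, with 29 wild-type and 46 mutant UMIs. Endothelial cells held 154 CPM (81.8 to 263, 13 UMIs in 5 cells) and 99.1 CPM (42.8 to 195, 8 UMIs in 5 cells), and their intervals overlapped. Immune cells held 15.5 and 31.1 CPM, so endothelium stood 9.89-fold (3.80 to 27.5) above them in the wild-type and 3.19-fold (1.13 to 8.48) in the mutant library. A further 13 UMIs of the mutant library lay in 5 of the 7 cells that carried markers of more than 1 cell type. Wild-type Scx-high cells had 0 of 4808248 UMIs, where the floor of 3 counts is 0.624 CPM and the upper 95% Poisson limit 0.767 CPM, and Scx-low fibroblasts had 0 and 1 UMI. Mutant Scx-high cells had 8 UMIs (7.78 CPM, 3.36 to 15.3) in 4 cells, with 5 UMIs in 1 of them. The exact lower limit of the mutant over wild-type ratio was 7.98, but it takes UMIs as independent, and these came from few cells. After thinning 0 of 207 mutant Scx-high cells had a UMI. With UMIs from so few cells, 7.98 is no firm bound. The immune level is not taken as a background for Pdgfb, since wild-type immune cells held 15.5 CPM where wild-type Scx-high cells had 0 UMIs.

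Pdgfc (chr3:81036416-81214040, plus strand) showed the largest difference between the libraries among the genes with enough counts. Scx-high cells held 18.3 CPM (14.7 to 22.5, 88 UMIs) in the wild-type and 70.0 CPM (54.8 to 88.1, 72 UMIs) in the mutant library, a ratio of 3.82 (2.76 to 5.28). Marker levels differed between the same Scx-high classes. The summed 8 fibroblast markers stood at 870 CPM in the wild-type and 7353 CPM in the mutant library, and the 8 proliferation markers at 297 and 739 CPM. Lower in the mutant library were the 7 tenocyte markers, at 114619 and 60045 CPM, and the 5 chondrocyte markers, at 1718 and 900 CPM. Of the latter, Col2a1 was at 872 and 120 CPM. The 8 skeletal muscle markers stood at 31.8 and 187 CPM. Of their 153 wild-type UMIs 148 were Chodl, which was at 30.8 and 40.8 CPM. Myog was at 0.416 and 101 CPM and Myod1 at 0 and 38.9 CPM, while Myh3 and Myh8 each went from 1 UMI to 0. The part of these marker differences in the Pdgfc, Pdgfrb and Pdgfra differences was not tested, nor was that of the newly recruited cells that the paper proposes. A UMI of Pdgfc was present in 6.49% of wild-type and 24.8% of mutant Scx-high cells, and in 2.61% and 6.76% after thinning. Scx-low fibroblasts held 21.8 CPM (16.6 to 28.1) and 25.7 CPM (21.7 to 30.2), with overlapping intervals. Mural cells had 3 UMIs and 0 UMIs, and immune cells 1.94 and 13.0 CPM. Scx-low fibroblasts thus stood near Scx-high cells in the wild-type (1.19, 0.842 to 1.68) and 2.72-fold (2.02 to 3.63) below them in the mutant library. The mutant Scx-high UMIs came from 56 cells, with at most 3 in 1 cell. Splits by cycling and by Col2a1 were chosen after values had been seen. Mutant Scx-high cells held 110 CPM in the 36 cycling and 59.2 CPM in the 190 other cells. Their wild-type counterparts held 11.3 CPM, on 5 UMIs, and 19.0 CPM. With under 3 Col2a1 UMIs, wild-type Scx-high cells held 26.1 CPM and mutant ones 69.9 CPM. Those with at least 3 held 14.7 CPM in the wild-type and 72.2 CPM, on 4 UMIs in 13 cells, in the mutant library.

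Cells of both libraries were next compared at like Scx levels, since the Scx-high classes could differ in how much Scx they held. Over this class wild-type cells held 25654 CPM of Scx and mutant cells 28429 CPM. Pdgfrl was higher at each step of Scx from 10 Scx UMIs per 10000 upward in both libraries, from 300 to 1533 CPM in the wild-type and from 558 to 1291 CPM in the mutant. Pdgfra ran the other way, from 90.5 CPM without Scx to 6.0 CPM at 300 or more in the wild-type and from 86.2 to 8.17 CPM in the mutant library. Pdgfa ran in the wild-type library from 48.0 to 149 CPM, while in the mutant library it was 55.1, 82.3, 116, 102, 164 and 106 CPM over the bins, with no steady course.

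Pdgfc and Pdgfrb differed between the libraries within bins of high Scx. In wild-type cells Pdgfc was 23.9, 19.0 and 15.3 CPM in the bins of 30 to under 100, 100 to under 300 and 300 or more Scx UMIs per 10000, and in mutant cells 63.2, 57.7 and 87.1 CPM. The ratios were 2.65 (1.22 to 6.08), 3.04 (1.70 to 5.21) and 5.68 (3.22 to 10.2). Pdgfrb was 32.5, 28.1 and 12.7 CPM in wild-type cells and 30.1, 60.7 and 70.8 CPM in mutant cells, with ratios of 0.925 (0.372 to 2.20), 2.16 (1.25 to 3.56) and 5.59 (2.98 to 10.7). Below 10 Scx UMIs per 10000 Pdgfrl stood at 158 against 281 CPM in cells with no Scx UMI, a ratio of 1.78 (1.47 to 2.18). In the cells with some Scx it was at 150 against 485 CPM, a ratio of 3.23 (2.78 to 3.75). In those same cells Pdgfra had a ratio of 0.706 (0.518 to 0.953) and Pdgfa of 1.43 (1.07 to 1.90). Immune cells held 1536 CPM of Scx in the wild-type and 82.9 CPM in the mutant library. Cells in a low Scx bin thus need not be alike between the libraries. The part of free Scx RNA in the low bins was not tested.

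**Figure D3:**
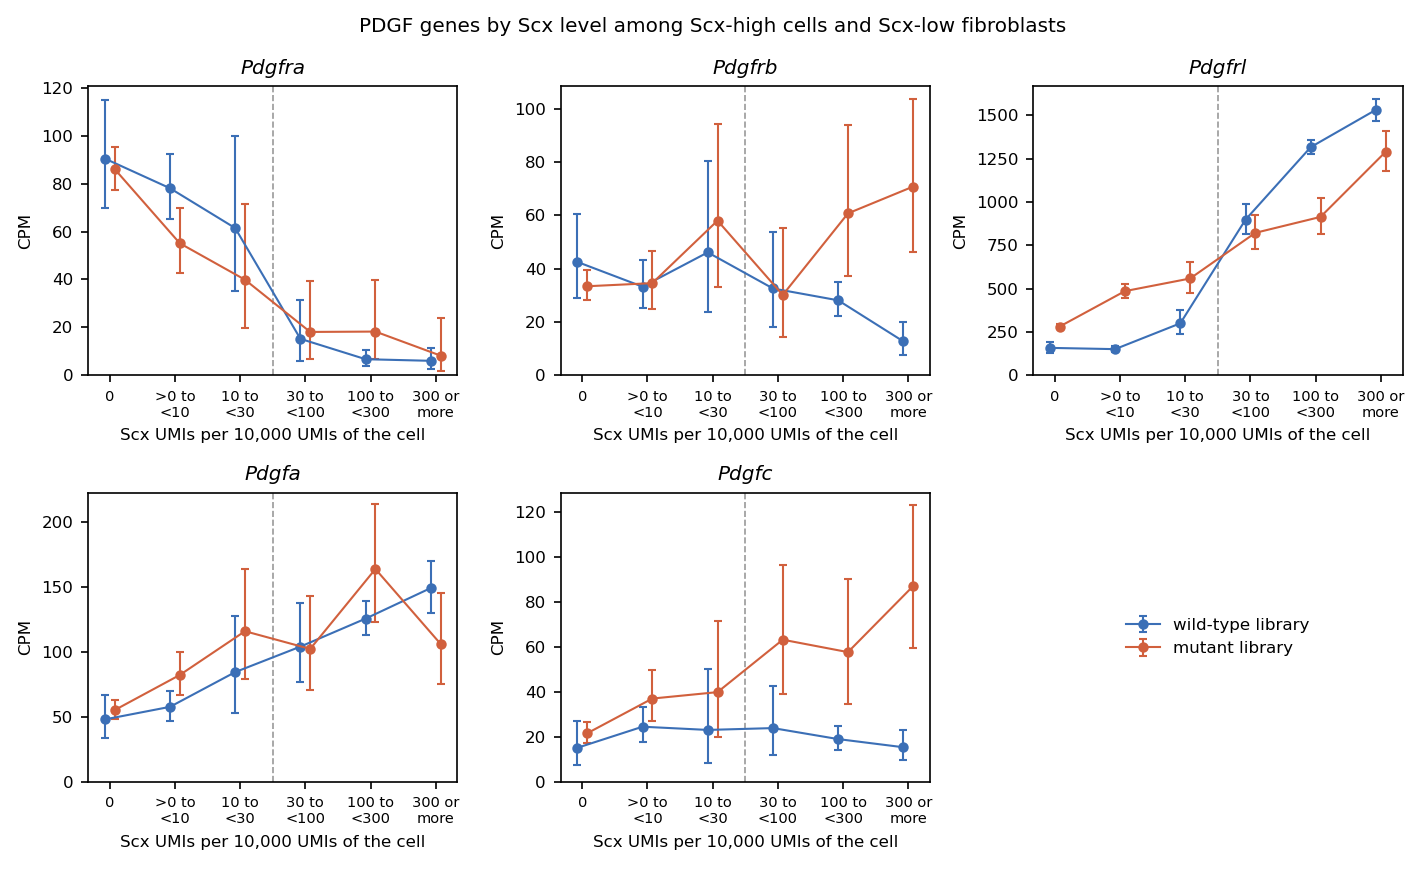
CPM of 5 PDGF genes (linear axes from 0) in Scx-high cells and Scx-low fibroblasts grouped by Scx UMIs per 10000 UMIs of the cell; the dashed line is the class boundary, points are sums over the cells of a bin and bars exact 95% Poisson intervals. At 300 or more Scx UMIs the mutant library had 87.1 CPM of Pdgfc against 15.3 and 70.8 CPM of Pdgfrb against 12.7, while bins of higher Scx had more Pdgfrl and less Pdgfra at the ends of the range in both libraries.

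The comparisons were set against all genes with at least 50 UMIs summed over both sides, calling a gene when its levels were at least 2-fold apart. Between the Scx-high classes 3 of the 5 PDGF genes with enough UMIs, Pdgfra, Pdgfrb and Pdgfc, were at least 2-fold higher in the mutant library and 0 lower, where 10.6% of 7338 genes were higher and 5.79% lower. Of these, Pdgfra rested on 15 mutant UMIs, a level not detectably above the immune level on the CPM scale. Its ratio of 2.00 (1.02 to 3.76) went to 0.304 with the immune level of each library subtracted. The median gene also stood higher there, by 0.27 on the log2 scale. Relative to that median the Pdgfc ratio was 3.16 and the Pdgfrb ratio 1.90, so only Pdgfc of the 5 stayed past 2-fold. In Scx-low fibroblasts 1 of 5, Pdgfrl, was higher and 0 lower, beside 4.26% and 4.52% of 9182 genes. In mural cells 0 of 3 were higher and Pdgfrl was lower, beside 3.83% and 3.37% of 3027 genes, with a median shift of 0.12. In immune cells only Pdgfrl had enough UMIs and was not called, beside 3.58% of 2545 genes higher and 3.46% lower, and in endothelial cells no PDGF gene had enough.

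Within the libraries, Scx-low fibroblasts were compared with Scx-high cells. In each library 1 of 5 genes, Pdgfra, was at least 2-fold higher in Scx-low fibroblasts, beside 18% of genes for the wild-type and 11.4% for the mutant library. In each library 2 were at least 2-fold lower, Pdgfrl and Pdgfa in the wild-type and Pdgfrl and Pdgfc in the mutant, beside 5.09% and 4.77% of genes. All-gene medians stood 0.44 and 0.12 higher in Scx-low fibroblasts on the log2 scale, and relative to it wild-type Pdgfrb was at 1.15. Pdgfrl was 8.06-fold (7.33 to 8.89) lower in the wild-type and 3.02-fold (2.79 to 3.25) lower in the mutant library. Mutant Scx-low fibroblasts were then set against wild-type Scx-high cells, the pairing nearest to the study's comparison of its dedifferentiated cluster with wild-type tenocytes. Pdgfra was 10.6-fold (7.52 to 15.4) higher, beside 19.6% of 9440 genes. Pdgfrl and Pdgfa (2.05-fold, 1.80 to 2.34) were lower, beside 5.58%. For Pdgfra, wild-type Scx-low fibroblasts stood 10.97-fold above the same Scx-high cells. The pairing took all mutant Scx-low fibroblasts, 357 of them with a Pi16 UMI, and not the study's cluster. These comparisons share cells, and their overlap is not counted as a result.

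**Figure D4:**
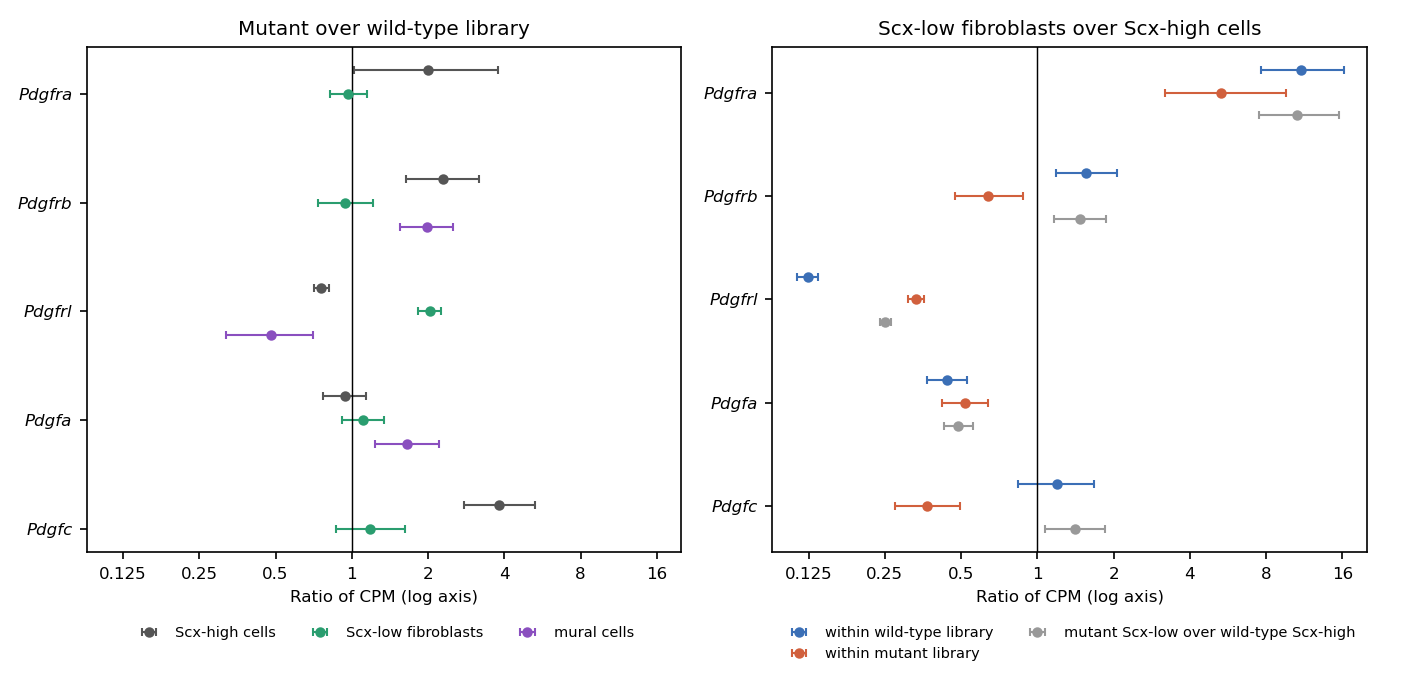
Ratios of CPM (log axis, exact 95% conditional intervals, line at 1) for PDGF genes with at least 50 UMIs, mutant over wild-type within 3 classes (left) and Scx-low fibroblasts over Scx-high cells (right). Pdgfc stood at 3.82 between Scx-high classes and Pdgfrl on opposite sides of 1 in Scx-high cells (0.758) and Scx-low fibroblasts (2.03). The Pdgfrb intervals of the libraries lay on opposite sides of 1 at right, without centring on the median gene.

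A list of 49 other PDGF pathway genes, from ligand activators to signalling adaptors, was read the same way. Between Scx-high classes 5 of 37 with enough UMIs were at least 2-fold higher in the mutant library and 3 lower, where all genes gave the 10.6% and 5.79% above, with a list median of 0.26 beside 0.27 for all genes on the log2 scale. The list thus stood near the background, and the genes below are single members of it. The 3 with the largest ratios were Plat, the activator of latent PDGF-C, from 11.2 to 113 CPM (10.04-fold, 7.21 to 14.1), Nrp2, a neuropilin co-receptor, from 4.99 to 28.2 CPM (5.65-fold, 3.17 to 10.1), and Thbs1, the matricellular thrombospondin 1, from 73.2 to 296 CPM (4.05-fold, 3.46 to 4.73). Plat and Pdgfc were thus both higher in the class, Plat in 27.9% of mutant and 4.15% of wild-type cells, with 0 Plat UMIs in immune cells of either library. Lower were Sparc, a matrix glycoprotein that binds PDGF, from 55296 to 18248 CPM (3.03-fold), and the signalling genes Stat5b (2.51-fold, 0.919 to 9.61) and Yes1 (2.01-fold, 0.803 to 6.48), whose intervals held 1.

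In Scx-low fibroblasts 1 of 44 list genes was higher in the mutant library, Nrp2 (2.62-fold, 1.55 to 4.68), and 2 were lower, beside 4.26% and 4.52% of all genes. Slc9a3r1, which encodes a scaffold protein that binds PDGF receptors, was at 87.2 CPM in the wild-type and 9.97 CPM in the mutant library, with a UMI in 75 of 713 and 45 of 1824 cells. Cspg4, the NG2 proteoglycan of pericytes, was at 29.9 and 10.5 CPM. Immune cells held 46.6 and 36.3 CPM of it, so the fibroblast levels were not above the immune level. In mural cells 1 of 19 was higher, Plat (5.46-fold, 3.01 to 10.2), and 1 lower, the signalling gene Hras (2.46-fold, 1.30 to 5.14), beside 3.83% and 3.37%. In immune cells 0 of 17 were called in either direction, beside 3.58% and 3.46%.

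Between the mesenchymal classes, 6 of 40 list genes were higher in Scx-low fibroblasts and 1 lower in the wild-type library, beside 18% and 5.09% of all genes, with a list median of 0.50 beside 0.44 for all genes. Slc9a3r1 led with 69.9-fold (31.6 to 192), on 6 Scx-high UMIs, before the kinase gene Fyn at 5.19-fold and the co-receptor Nrp1 at 4.42-fold, and Sparc was 4.68-fold lower. In the mutant library it was 6 of 42 and 1, beside 11.4% and 4.77%, with Slc9a3r1 at 10.3 (1.77 to 412) on 1 Scx-high UMI, Nrp1 at 3.43-fold, Fyn at 3.21-fold and Thbs1 2.55-fold lower, and a median of 0.09 beside 0.12. Between mutant Scx-low fibroblasts and wild-type Scx-high cells 11 of 44 were higher and 3 lower, beside 19.6% and 5.58%, with a median of 0.45 beside 0.40. The leading genes were Slc9a3r1 (7.99-fold), Nrp1 (6.02-fold) and Plat (5.47-fold), and the lower ones were Sparc (4.73-fold), Cspg4 (2.91-fold) and Hras (2.04-fold).

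The genes whose level over the 10 combinations of class and library was most like each receptor were found by Pearson's r of log2(CPM + 10) among 7021 genes, as a description over points that share libraries and depth. Next to Pdgfra these were Arsi (r = 0.951), Tmeff2, Itm2a, Zim1 and Entpd2. Next to Pdgfrb they were Il34 (r = 0.977), Gabbr1, Foxs1, Myl9 and Trabd2b. Next to Pdgfrl they were Itgbl1 (r = 0.968), Col12a1, Ssr4, Mfap4 and Clec11a. Among the PDGF genes themselves Pdgfa was most like Pdgfrb (r = 0.792) and Pdgfc most like Pdgfrl (r = 0.709).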

How the data were processed

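The authors made the deposited counts from 10x Genomics 3′ libraries, aligned to mm10, with cell barcodes kept by total UMI count; the study's methods name Cell Ranger 2.0 and the submitters' processing notes 1.2.0. The values are raw UMI counts per gene and cell. All barcodes were used, from 948 to 14358 UMIs per cell in the wild-type and 903 to 15968 in the mutant library, and depth limits the rarer genes to a few UMIs per class. Scrublet, through scanpy 1.11.5 set to expect 2%, marked 0.423% and 0.193% of cells as doublets, and these were kept.

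Cells with over 50% haemoglobin UMIs were set apart, then cells with markers of a type, and cells with markers of more than 1 type were left out. The gene members, lists and splits were chosen with earlier results of these data known, and the marker minimum was set after the files had been seen. Counts were summed per class and scaled to CPM. Exact intervals were computed with SciPy 1.17.1 and NumPy 2.4.6 in Python 3.11.15. No test was run, because there is 1 library per condition. The ratio interval was also run on simulated Poisson counts, which it assumes. That simulation left out the clustering of UMIs within cells, so it does not show how the interval holds for these counts. Named genes are the 6 members, up to 3 pathway genes in each direction per comparison with the largest ratios of at least 2-fold, and the 5 most similar profiles per receptor among genes with at least 200 UMIs; the genes used to split classes were added later. Other thresholds, cell filters and scalings were tried as alternatives. Gene positions are from GENCODE M21 on GRCm38 and upstream sequences from RefSeq.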

Additional observations from a re-analysis of the deposited data

Results flagged for a closer look

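Pdgfrl differed between libraries in opposite directions by class, with mutant over wild-type ratios of 0.758 in Scx-high cells, 2.03 in Scx-low fibroblasts and 0.480 in mural cells. The difference between these ratios was not tested, since each class had 1 library per condition. The interval in Scx-low fibroblasts lay above 1 and the other intervals below it. Scx-high cells with at least 3 Col2a1 UMIs went the other way from their class, at 1446 CPM in the wild-type and 2148 CPM in 13 mutant cells.

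Pdgfrb was higher in Scx-low fibroblasts than in Scx-high cells of the wild-type library, with a ratio of 1.56, and lower in the mutant library, at 0.640. Relative to the median gene the wild-type ratio was 1.15. The difference between the libraries was also not tested.

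Cells outside the 5 classes also held PDGF UMIs. Those that met no class rule had 17 Pdgfa UMIs of 75494 in 12 of 38 wild-type cells and 44 of 192162 in 26 of 90 mutant cells. They also had 42 and 28 UMIs of Pdgfrl. The 48 mutant cells with Schwann cell markers held 22 UMIs of Pdgfa, 160 CPM (100.3 to 242), above the 41.5 CPM of immune cells in that library. The wild-type library had 1 such cell, so there is no comparison between the libraries.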

How the results depend on the processing

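No paired analysis was possible because there was 1 library per condition, with no second library to pair. The class with the highest level was the same in both libraries for 5 or 6 of the genes under 10 alternatives. Of 347 alternative values of the 29 member ratios, 312 stayed within the counting interval, 33 left it and 2 turned direction. The count of members at least 2-fold apart between Scx-high classes went from 3 to 1 with the 20 most abundant genes left out and with centring on the median gene, and to 2 with the stricter marker minimum and with equal weight per cell, where the Pdgfra ratio was 1.87. In Scx-low fibroblasts it went from 1 to 0 with a fibroblast minimum of 3 UMIs, with the stricter marker minimum and with equal weight per cell, since the Pdgfrl ratio then fell under 2. In mural cells it went from 1 to 0 with the looser marker minimum, and in immune cells from 0 to 1 with the stricter one. Pathway genes higher in mutant Scx-low fibroblasts than in wild-type Scx-high cells went from 11 to 6 at a minimum of 200 UMIs, where fewer genes were read. Subtracting the immune level of each library, added after seeing the data, turned Pdgfra between Scx-high classes to 0.304 and Pdgfc in mutant Scx-low fibroblasts over wild-type Scx-high cells to 0.780. Pdgfc between Scx-high classes ranged from 3.16 to 4.25, Pdgfrb from 1.90 to 2.5, Pdgfrl in Scx-low fibroblasts from 1.62 to 3.09 and in mural cells from 0.360 to 0.933. Shares of cells with a UMI fell after thinning in both mesenchymal classes for each member other than Pdgfb. The causes of these shifts were not tested otherwise. With 2 pups pooled per library, variation between animals is not measured.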
